A study of Mus musculus with 8 samples.

Results

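ASZ001 is an established mouse line grown from a basal cell carcinoma, and the comparison described here is the induction of RasV12 in ASZ001 cells that carry a non-silencing control shRNA (NS). The members were chosen by their labels: the NS libraries given Dox and 4OHT and labelled RasV12 against the NS libraries given DMSO, 2 libraries in each group, which are 4 of the 8 libraries of the series. The other 4 libraries carry an shRNA against Tgfbr1 with the same 2 treatments. They are part of the shared fit and so enter the filter, the scaling and the spread behind each p-value and ± value of the NS comparison. Their own values are described only where the response in NS cells is set against the response in the knockdown cells. RNA of adherent cells was made into TruSeq libraries and read on a HiSeq instrument, and the deposited table holds estimated counts per gene. Levels are given below as CPM, the counts of a gene scaled to a common library total.

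All 4 NS libraries share the line and the control shRNA, so they differ by label in the treatment alone. Dox and 4OHT are doxycycline, which switches on tetracycline-controlled genes, and 4-hydroxytamoxifen, a ligand of the oestrogen receptor. No library received these drugs without RasV12, and RasV12 and the drugs cannot be told apart in any value below. The promoter that drives RasV12, the doses, the time under treatment, whether the line is 1 clone and whether the 2 libraries of a group are separate cultures are facts that the labels do not give. P-values therefore measure the spread between the 2 libraries of a group, taken over the 4 groups of the series, and this spread may be technical. In bulk RNA, fewer cells with a transcript and less transcript per cell cannot be told apart.

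Ras proteins are small GTPases that, when loaded with GTP, activate the kinases RAF, MEK and ERK, and the V12 form stays active because its GTP is hydrolysed poorly. ERK acts on ETS and AP-1 transcription factors, and its targets include Sprouty proteins and MAPK phosphatases, which damp the pathway, and ligands of the EGF receptor, which extend it to neighbouring cells. Basal cell carcinoma is driven by Hedgehog signalling and keeps features of basal and hair follicle keratinocytes, whereas squamous cell carcinoma often carries active Ras, and the title of the series places its experiment at the passage from the first to the second.

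Promoter sequence is shown for 5 genes whose changes are described below and whose promoters hold a short motif of an AP-1, C/EBP-ATF or CREB-type factor. The motifs and the genes were chosen after the values were seen. Each line gives the 200 bases before the annotated start of the gene, 5′ to 3′ on its own strand, from RefSeq's promoter table on GRCm38.p6, with the motif in capitals. The windows are chr5:91139399-91139598 on the plus strand for Areg, chr1:191183334-191183533 on the minus strand for Atf3, chr3:50443614-50443813 on the minus strand for Slc7a11, chr3:92485882-92486081 on the minus strand for Sprr1a and chr7:30751271-30751470 on the plus strand for Sbsn.
Areg: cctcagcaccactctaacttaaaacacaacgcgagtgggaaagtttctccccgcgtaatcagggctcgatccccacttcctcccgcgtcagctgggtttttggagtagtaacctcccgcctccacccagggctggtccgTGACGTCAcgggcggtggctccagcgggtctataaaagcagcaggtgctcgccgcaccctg
Atf3: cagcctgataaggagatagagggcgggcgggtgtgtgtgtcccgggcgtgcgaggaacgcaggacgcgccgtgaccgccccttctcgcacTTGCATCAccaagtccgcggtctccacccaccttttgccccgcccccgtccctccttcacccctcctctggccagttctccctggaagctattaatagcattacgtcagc
Slc7a11: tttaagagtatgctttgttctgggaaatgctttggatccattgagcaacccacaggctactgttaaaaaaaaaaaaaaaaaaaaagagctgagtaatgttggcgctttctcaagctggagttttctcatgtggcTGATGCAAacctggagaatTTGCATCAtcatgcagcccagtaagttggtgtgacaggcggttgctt
Sprr1a: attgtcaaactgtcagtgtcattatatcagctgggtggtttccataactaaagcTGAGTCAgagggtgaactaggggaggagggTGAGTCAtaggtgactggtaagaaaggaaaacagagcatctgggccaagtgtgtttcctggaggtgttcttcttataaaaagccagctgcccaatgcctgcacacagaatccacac
Sbsn: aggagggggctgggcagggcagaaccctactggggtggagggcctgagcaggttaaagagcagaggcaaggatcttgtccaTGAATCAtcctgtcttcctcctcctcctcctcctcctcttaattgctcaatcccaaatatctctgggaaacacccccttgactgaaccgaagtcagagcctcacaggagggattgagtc
In Areg, which encodes the EGF receptor ligand amphiregulin, the capitals mark the cyclic AMP response element TGACGTCA, 61 bases before the start. In Atf3, a stress-induced ATF factor, and Slc7a11, the cystine transporter subunit, they mark matches to the C/EBP-ATF element TGATGNAA on either strand, 110 bases before the start of Atf3 and 66 and 47 bases before that of Slc7a11. In Sprr1a, a precursor of the cornified envelope, and Sbsn, which encodes suprabasin, they mark the AP-1 motif TGANTCA, at 146 and 116 bases in Sprr1a and at 119 bases in Sbsn. Atf3, Areg and Sprr1a rose with RasV12, while Slc7a11 and Sbsn fell, so the same letters stood in front of genes that moved in opposite directions.

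Promoter entries, 250 bases before to 50 after the start, were matched by symbol for 9711 of the 12538 genes tested. These genes had 12356 entries, and a gene was counted where any of its entries held the motif. Motifs were read on both strands, and none contains another. The AP-1 motif stood before 6.34% of these genes. It was found for 23 of 134 genes (17.2%) that rose past 1.5-fold, by the test given below, and for 40 of 241 (16.6%) that fell past 1.5-fold. The C/EBP-ATF element was found for 2.68% of all these genes, for 6 of 23 ATF4 and serine synthesis genes and for 5 of 12 cytosolic aminoacyl-tRNA synthetases, groups described below. The ETS motif CCGGAAG was found for 20.5% of all these genes and for 5.22% and 2.90% of the genes that rose and fell past 1.5-fold. These are counts of letters in windows and name no binding site.

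Library totals of the 4 libraries were 12724604.5 to 16233379 counts, and the 2 libraries of a group correlated at 0.995 to 0.996 across genes. The 7 keratinocyte markers were found in every library, at a summed 30013 and 29811 CPM with DMSO against 15363 and 15703 CPM with RasV12. Of other cell types, immune markers summed to 7.397 to 9.38 CPM, nearly all Cd68, with Cd3e at 0, fibroblast markers to 3.47 to 4.39 CPM with Lum at 0, and both adipocyte markers were at 0. Endothelial markers summed to 36.4 and 37.1 CPM with DMSO against 23.8 and 22.5 CPM with RasV12, nearly all of it Pecam1, and melanocyte markers to 3.78 to 6.22 CPM, all of it Pmel. The 45S ribosomal RNA precursor entry Rn45s took 0.816% and 0.549% of counts with DMSO and 0.916% and 2.76% with RasV12. It was highest in replicate 2 of the RasV12 libraries, and without it in the fit 5279 genes were called, against 5281 with it.

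Of 12538 genes tested with edgeR's quasi-likelihood test, 5281 (42.1%) passed an adjusted p of 0.05, 2613 higher (20.8%) and 2668 lower (21.3%) with RasV12. The median size of the change was 0.31 on the log2 scale among the called genes and 0.18 over all genes tested, and over all genes the 5th and 95th percentiles of the change were -0.77 and 0.59. Tested against a change of 1.5-fold, 534 genes passed (4.26%), 193 higher (1.54%) and 341 lower (2.72%). Larger changes leaned to loss, with 49 called genes at least 4-fold higher against 82 at least 4-fold lower, and 16 at least 8-fold higher against 33 at least 8-fold lower. These shares are the background for each gene group below, and the median change over all genes was 0.00.

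**Figure D1:**
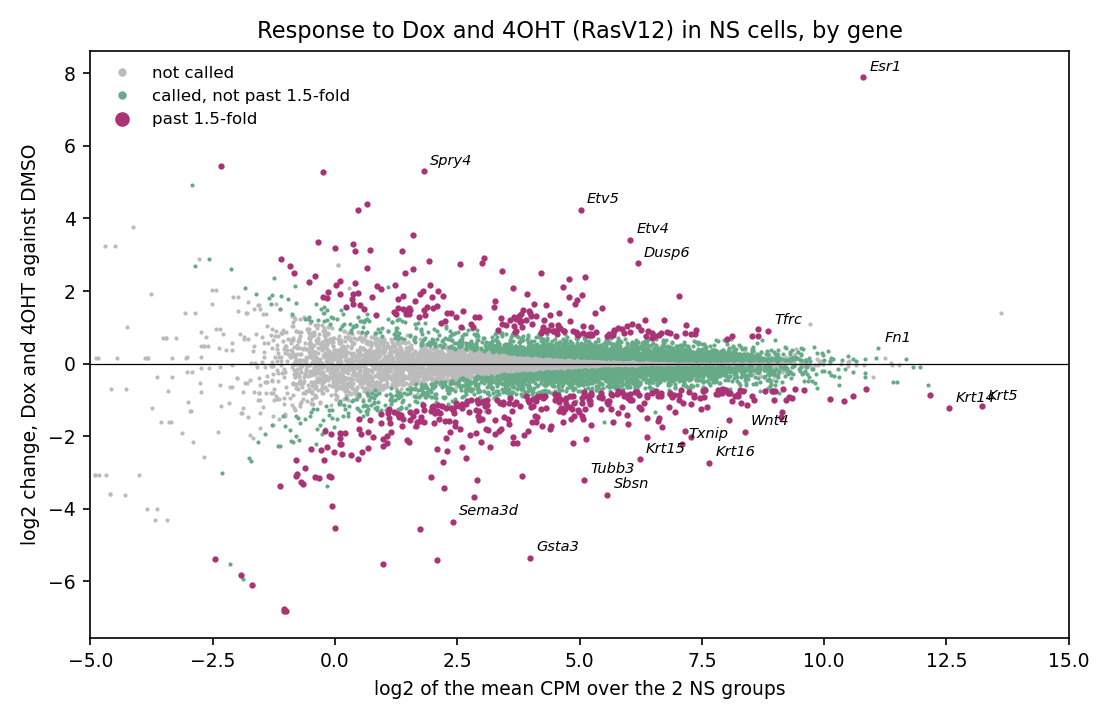
Change with RasV12 in NS cells (vertical axis, log2 of Dox and 4OHT over DMSO) against mean abundance (horizontal axis, log2 CPM) for the tested genes, 1 point a gene. Grey points did not pass the test, green points are called at an adjusted p of 0.05 and purple points pass the 1.5-fold test, 193 of them higher and 341 lower over all genes; genes of the lowest abundance lie outside the axis.

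The entry that rose most among genes of at least 10 CPM was Esr1, the oestrogen receptor alpha gene, at 15.9 and 14.03 CPM with DMSO against 3451 and 3657 CPM with RasV12. The groups were far apart, by 236-fold (log2 7.88 ± 0.05, adjusted p = 4.53e-30). Tamoxifen-regulated fusion proteins use part of this receptor, and whether these counts come from the cells' own gene or from introduced sequence is not stated by the labels. Of the 8 tested oestrogen receptor targets, 2 rose and 3 fell: Ccnd1, cyclin D1, at 209 and 210.4 to 321 and 351 CPM (log2 0.68 ± 0.04), was higher and Ctsd, cathepsin D (log2 -0.27 ± 0.04), was lower. The higher count was 1 without DMSO replicate 2 or Dox and 4OHT replicate 1.

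The entries of Hras and Nras, which encode Ras proteins, moved little. Hras went from 176 and 179 to 162 and 158 CPM (log2 -0.15 ± 0.04, adjusted p = 0.00324). Nras, at 248 and 249 to 267 and 259 CPM, did not pass the test (log2 0.08 ± 0.04, adjusted p = 0.0744). Which Ras gene carries the V12 change is not stated by the labels. Of 14 tested Ras family GTPases 3 rose and 3 fell, with Rap1b, a relative that acts on integrin adhesion, higher (log2 0.19 ± 0.04) and Rras2 lower (log2 -0.17 ± 0.04). With DESeq2, Hras was no longer called, and without Dox and 4OHT replicate 1 the count of the family that rose was 1. DESeq2 called 1 of the family higher and 1 lower.

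Among the 18 kinases and scaffolds of the ERK cascade, 2 rose and 4 fell, so 33.3% were called, against 42.1% of all genes. Ksr1, a scaffold that holds RAF, MEK and ERK together, rose from 1.99 and 1.81 to 4.63 and 4.797 CPM (log2 1.30 ± 0.21). The ribosomal S6 kinases Rps6ka2 (log2 -0.41 ± 0.06) and Rps6ka1 (log2 -0.24 ± 0.04), which ERK activates, were lower. The counts for these genes were 1 higher without DMSO replicate 2 and 2 lower without DMSO replicate 1 or by DESeq2.

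Genes of negative regulators of MAPK signalling mostly rose: 15 of 22 Sprouty, Spred and MAPK phosphatase genes were higher and 3 lower, with a median of 0.51 on the log2 scale against 0.00 for all genes, and 7 passed 1.5-fold upwards. Dusp6, the phosphatase that acts on ERK in the cytoplasm, was at 16.1 and 21.3 CPM with DMSO against 126 and 128 CPM with RasV12. Its groups did not overlap and stood 6.83-fold apart (log2 2.77 ± 0.09, adjusted p = 3.24e-11). Spry1 rose from 6.16 and 6.61 to 23.2 and 25.2 CPM (3.79-fold), Spry2 from 9.298 and 10.7 to 25.7 and 23.4 CPM (2.46-fold) and Spred1 from 114 and 109.7 to 208 and 188 CPM (1.77-fold). Spry4 and the nuclear phosphatase gene Dusp4, chosen after their values were seen, went from 0.187 and 0.178 to 7.06 and 6.59 CPM and from 0.466 and 0.604 to 4.36 and 4.87 CPM, both low in untreated cells. Dusp14 and Dusp10, MAPK phosphatase genes of the same list, moved the other way (log2 -0.49 ± 0.06 and -0.42 ± 0.11).

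Of 16 tested ETS factors 6 rose and 2 fell, or 3 and 0 by DESeq2, and the large rises were those of the PEA3 subfamily, Etv1, Etv4 and Etv5. Etv5 was at 3.11 and 3.45 CPM with DMSO against 61.1 and 62.1 CPM with RasV12, 18.9-fold higher (log2 4.24 ± 0.12, adjusted p = 1.18e-19). Etv4 was at 10.7 and 11.8 CPM with DMSO against 114 and 125 CPM with RasV12, 10.7-fold higher (log2 3.41 ± 0.07, adjusted p = 2.43e-23). For both genes every treated library lay above every untreated one. The third member, Etv1, had 0 counts in both DMSO libraries together and 10.5 under Dox and 4OHT, at least 3.97-fold higher against a floor of 3 counts over the group. Elk3, a ternary complex factor that ERK phosphorylates, rose from 66.1 and 65.4 to 97.7 and 106 CPM (log2 0.63 ± 0.05). The lower pair, Ets2 and Elk1 (log2 -0.13 ± 0.04 and -0.24 ± 0.09), lost their calls with DESeq2 and without DMSO replicate 1, Ets2 also without Dox and 4OHT replicate 1 and Elk1 without DMSO replicate 2 or Dox and 4OHT replicate 2. The median over the ETS factors was 0.06.

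**Figure D2:**
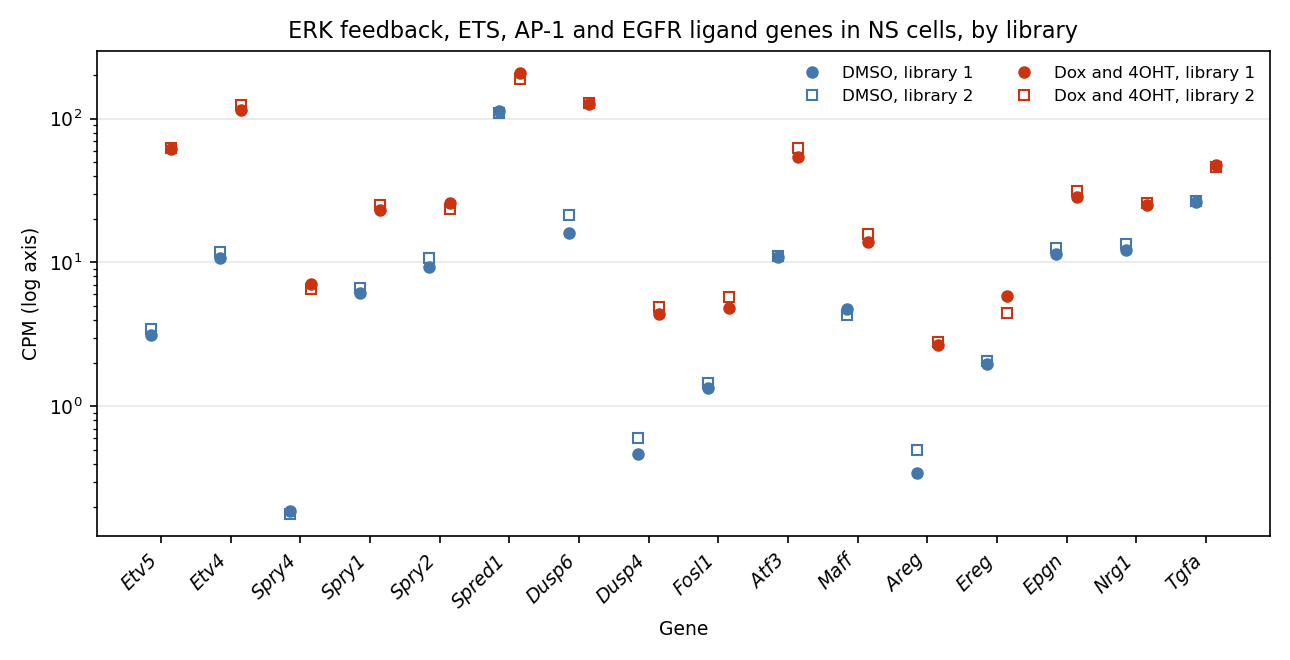
Abundance of 16 genes downstream of ERK in each NS library (vertical axis, CPM on a log scale; genes along the horizontal axis), 1 point a library, with DMSO and Dox and 4OHT in separate colours. For Etv5, Etv4, Dusp6, Atf3 and Areg the points of the 2 treatments lie apart, with the treated pair above.

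AP-1 and small Maf factors rose in 7 of 13 cases and fell in 2, with a median of 0.47; without any 1 of the libraries other than Dox and 4OHT replicate 2, and by DESeq2, the count lower was 1. Atf3 was at 10.9 and 11.2 CPM with DMSO against 53.8 and 62.2 CPM with RasV12, 5.26-fold higher (log2 2.40 ± 0.09, adjusted p = 1.64e-17). Maff rose from 4.76 and 4.299 to 13.8 and 15.9 CPM and Jun from 199 and 202 to 301 and 312 CPM. Fosl2, an AP-1 subunit of the Fos group, fell from 579 and 569 to 372 and 379 CPM (log2 -0.61 ± 0.03), and Fosl1, chosen after its values were seen, was at 1.34 and 1.46 CPM with DMSO against 4.82 and 5.75 CPM with RasV12 (log2 1.91 ± 0.22, adjusted p = 7.34e-08). Of 23 immediate early genes 12 rose and 6 fell (median 0.35). Among them the RNA-binding protein gene Zfp36l2 (log2 0.83 ± 0.04), Phlda1 (log2 0.96 ± 0.07), Ier2 (log2 0.80 ± 0.07) and Ier3 (log2 0.72 ± 0.06) were higher. Klf4, a factor of epidermal differentiation, and Myc were lower, at log2 -0.37 ± 0.04 and -0.36 ± 0.05.

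Ligands of the EGF receptor family rose. Of the 10 tested ligands and receptors, 7 were higher and 0 lower by edgeR, with 0 lower also at an unadjusted p of 0.05 and by DESeq2, which called 6 higher, and the median was 0.91. Areg was at 0.342 and 0.497 CPM with DMSO against 2.66 and 2.78 CPM with RasV12, low in all 4 libraries, with separate groups (log2 2.62 ± 0.36, adjusted p = 9.41e-07). Epgn, epigen, was at 11.4 and 12.6 CPM with DMSO against 28.7 and 31.5 CPM with RasV12 (log2 1.33 ± 0.10, adjusted p = 1.36e-11). Tgfa, transforming growth factor alpha, rose from 26.4 and 26.96 to 47.6 and 45.8 CPM (1.75-fold) and Nrg1, the ligand neuregulin of the receptors Erbb3 and Erbb4, from 12.1 and 13.4 to 25.01 and 26.1 CPM (2.005-fold). Ereg, epiregulin, chosen after its values were seen, was at 1.96 and 2.06 CPM with DMSO against 5.87 and 4.43 CPM with RasV12 (log2 1.33 ± 0.21, adjusted p = 1.03e-05). The receptor gene Egfr, chosen in the same way, was at 172 and 172 CPM with DMSO against 166 and 161 CPM with RasV12 (log2 -0.07 ± 0.04, adjusted p = 0.173).

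Outside this family, 10 of 26 growth factors and receptors rose and 9 fell. Vegfa, the main angiogenic factor, went from 13.99 and 15.03 to 41.5 and 48.7 CPM (3.11-fold, log2 1.64 ± 0.09), and Epha2, an Eph receptor induced by ERK, from 112 and 119 to 211 and 223 CPM (log2 0.91 ± 0.05). The fibroblast growth factor receptors parted: Fgfr2, the form of epithelia, fell from 310.4 and 298 to 189 and 189.6 CPM (log2 -0.68 ± 0.04), and Fgfr1 rose from 137 and 141 to 194 and 212 CPM (log2 0.55 ± 0.04). Fgfbp1, a carrier that releases FGF from matrix, fell (log2 -1.04 ± 0.10).

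Several keratins were among the abundant genes that fell. Of 14 tested keratins 9 were lower and 0 higher by edgeR, with 0 higher at an unadjusted p of 0.05 and by DESeq2, and the median was -1.28, or -1.22 with Krt1 and Krt7 set at the bound their few counts allow. Krt5, of the keratin pair that fills basal keratinocytes, was at 13196 and 13279 CPM with DMSO against 5770.0 and 5949 CPM with RasV12, 2.26-fold lower (log2 -1.18 ± 0.03, adjusted p = 5.80e-16). Its partner Krt14 was at 8662 and 8263 CPM with DMSO against 3538 and 3671 CPM with RasV12, 2.35-fold lower (log2 -1.23 ± 0.03, adjusted p = 6.49e-20). The groups did not overlap for either gene. Krt15, a keratin of basal cells and the hair follicle bulge, fell from 146 and 112 to 22.3 and 19.7 CPM (6.16-fold), and Krt75, of the companion layer of the follicle and outside the list, from 15.3 and 14.5 to 3.09 and 2.89 CPM (4.95-fold). The stress keratins fell as well, Krt16 from 364 and 335 to 50.7 and 54.9 CPM (6.63-fold), Krt17 from 5962 and 5905 to 3175 and 3289.7 CPM (1.84-fold) and Krt6a from 1862 and 1772 to 880.3 and 907 CPM (2.03-fold). Reads of Krt14, Krt16 and Krt17 and of Krt6a and Krt6b are alike in part and may have been divided or counted more than once.

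Of 14 hemidesmosome and laminin genes 9 fell and 1 rose (median -0.34). Col17a1, the transmembrane collagen of hemidesmosomes, fell from 5252 and 5386 to 3502 and 3639 CPM, Dst, whose product ties keratin to the hemidesmosome, from 3415 and 3312 to 2382 and 2342 CPM, and Col7a1, the anchoring fibril collagen, from 679 and 662 to 339 and 329 CPM. Lama3, a chain of the epidermal laminin-332, was lower (log2 -0.94 ± 0.03) and Lamb1, of other laminins, was higher (log2 0.50 ± 0.07). Among 15 desmosome genes 9 fell and 3 rose (median -0.45). Dsg1b, a desmosomal cadherin of the upper epidermis, was at 14.5 and 12.2 CPM with DMSO against 0.811 and 1.28 CPM with RasV12 (log2 -3.66 ± 0.24, adjusted p = 4.87e-12), and its near-identical neighbour Dsg1a, which may share its reads, went from 116.5 counts over both DMSO libraries to 2 counts, 51.4-fold lower with a counting interval of 13.9 to 428. Dsg3, the basal desmoglein, Pkp1, plakophilin 1, and Perp were lower at log2 -0.75 ± 0.04, -0.72 ± 0.04 and -0.55 ± 0.03, whereas desmoplakin, Dsp, and Pkp4 were higher at 0.15 ± 0.04 and 0.32 ± 0.04.

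**Figure D3:**
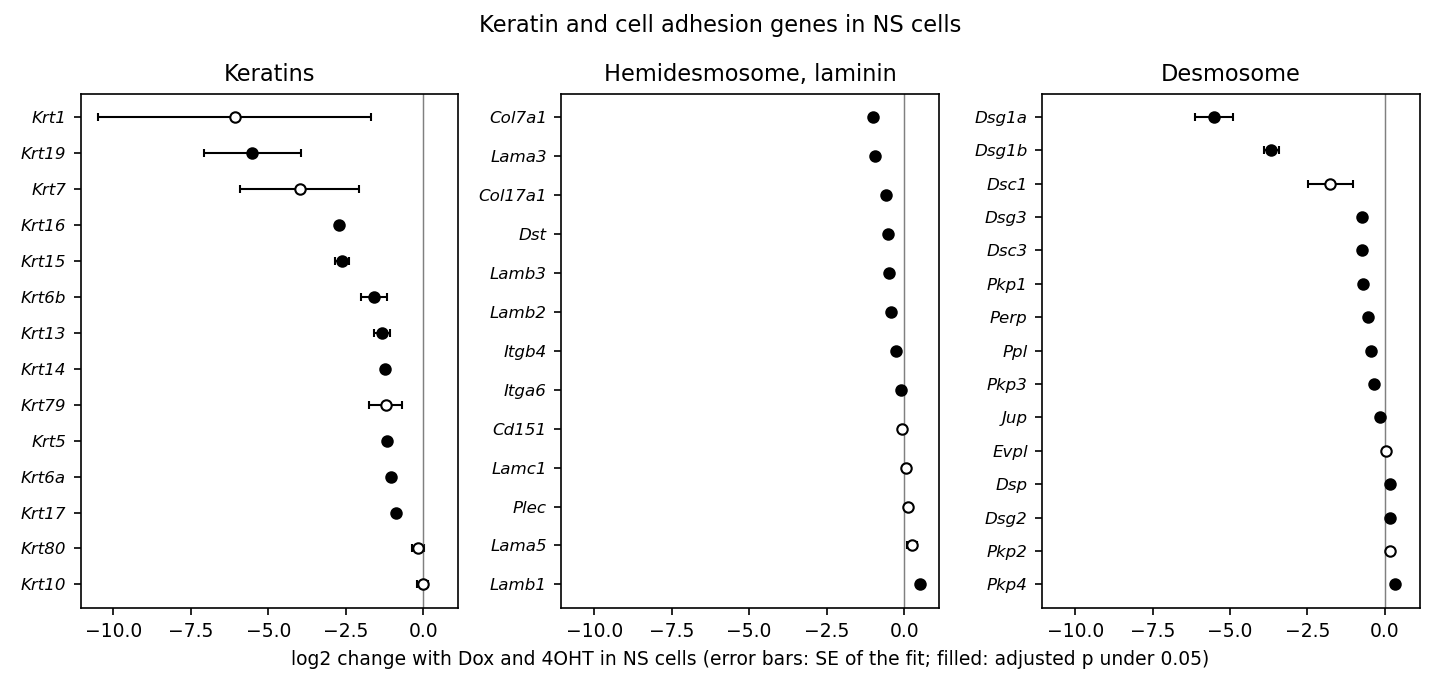
Change with RasV12 in NS cells (horizontal axis, log2 of Dox and 4OHT over DMSO, with bars of 1 standard error) for tested keratins, hemidesmosome and laminin genes and desmosome genes. Filled points passed the test, and 9 keratins, 8 hemidesmosome and laminin genes and 9 desmosome genes lie to the left of 0 as filled points. Of the 9 hemidesmosome and laminin genes that fell, 1 is not drawn.

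Tight and adherens junction genes were mixed, with 4 of 20 higher and 5 lower. E-cadherin, Cdh1, fell from 503 and 487 to 387 and 396 CPM (log2 -0.34 ± 0.03) and Cldn1, claudin 1, from 29.5 and 28.5 to 17.7 and 15.1 CPM (log2 -0.82 ± 0.09), while the gap junction gene Gja1 rose (log2 0.38 ± 0.04). Mesenchymal and EMT genes rose in 7 of 11 cases and fell in 1 (median 0.31). Vim, vimentin, was at 1.37 and 0.249 CPM with DMSO against 4.71 and 5.79 CPM with RasV12, far below the keratins in every library (log2 2.60 ± 0.35, adjusted p = 7.66e-06), and its log2 change was 4.17 without DMSO replicate 1 and 1.94 without DMSO replicate 2. Zeb2 and Twist1, repressors of epithelial genes, were higher at log2 0.85 ± 0.13 and 0.59 ± 0.11, and N-cadherin, Cdh2, was lower at -0.28 ± 0.04. Of 18 factors of epithelial splicing and identity 2 rose and 5 fell, so 38.9% were called, against 42.1% of all genes. Grhl3, a factor of the epidermal barrier, rose from 1.83 and 2.24 to 5.94 and 6.01 CPM (log2 1.53 ± 0.19) and Trp63, the master factor of stratified epithelia, from 375 and 369 to 445 and 429 CPM (log2 0.23 ± 0.03), while the splicing factor gene Esrp2 fell (log2 -0.62 ± 0.06).

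Of 29 tested squamous terminal differentiation genes 8 were lower and 2 higher, so 34.5% were called, against 42.1% of all genes, and 12 more were not tested. Past 1.5-fold, 4 were lower and 1 higher. The median was -0.51, or -0.45 with 6 members at the bound of their counts. Sbsn was at 82.004 and 93.4 CPM with DMSO against 6.64 and 7.69 CPM with RasV12, 12.2-fold lower (log2 -3.61 ± 0.13, adjusted p = 1.33e-10). Dmkn, the epidermal secreted protein dermokine, fell from 132 and 134 to 31.3 and 33.8 CPM, Tgm5, a cross-linking transglutaminase, from 3.64 and 3.48 to 1.35 and 1.35 CPM, and Casp14, the caspase of cornification, from 25.5 counts to 2 over both libraries, 11.3-fold lower with a counting interval of 2.87 to 99.7. The genes that rose were the cornified envelope precursors Sprr1a, from 4.17 and 4.19 to 10.2 and 10.3 CPM (log2 1.29 ± 0.23), and Sprr1b, from 2.83 and 3.73 to 5.25 and 5.19997 CPM (log2 0.68 ± 0.17), of a family whose reads are alike in part. The count lower was 5 without DMSO replicate 1 or without either Dox and 4OHT library, and Sprr1b lost its call without DMSO replicate 1, leaving 1 gene higher. Of 8 S100 genes 5 fell, S100a14 from 15.4 and 19.1 to 5.09 and 6.92 CPM and S100a6 from 546 and 523 to 391 and 404 CPM among them, or 3 by DESeq2 and without DMSO replicate 2 or Dox and 4OHT replicate 1, and 1, S100a10, rose (log2 0.21 ± 0.03).

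**Figure D4:**
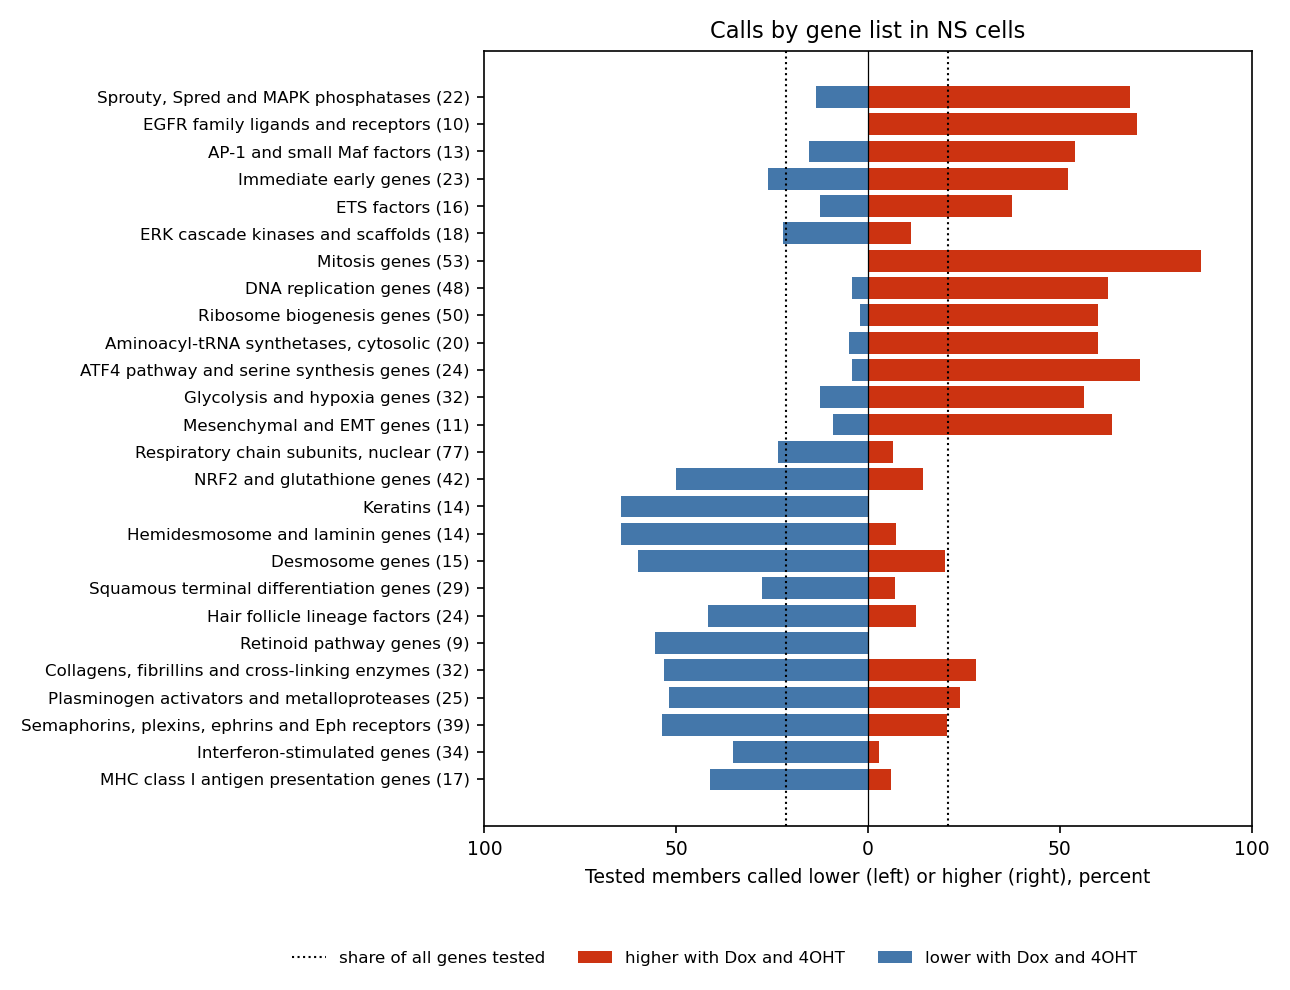
Percent of the tested members of 26 gene groups called lower (left) and higher (right) with RasV12 in NS cells. Dotted lines mark the shares of all tested genes, 21.3% lower and 20.8% higher.

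Hedgehog pathway genes, which drive basal cell carcinoma, moved both ways: 3 of 11 rose and 5 fell, with a median of 0.03, and 1 rose without DMSO replicate 1 or by DESeq2. The Hedgehog co-receptor genes Gas1 and Boc fell from 263 and 241 to 109 and 103 CPM and from 36.5 and 38.6 to 28.4 and 26.2 CPM, and Smo, the signalling receptor, was slightly lower (log2 -0.20 ± 0.04). Gli3, which encodes the pathway's main repressor, was higher (log2 0.39 ± 0.06). The direct targets Gli1 and Ptch1, chosen after their values were seen, were at 3.27 and 1.71 CPM with DMSO against 1.12 and 1.32 CPM with RasV12 (log2 -1.06 ± 0.33, adjusted p = 0.0108) and at 11.7 and 11.3 CPM with DMSO against 13.6 and 12.6 CPM with RasV12 (log2 0.19 ± 0.11, adjusted p = 0.183). The call of Gli1 was lost with DESeq2 and without DMSO replicate 1 (log2 -0.50) or Dox and 4OHT replicate 1.

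Hair follicle lineage factors fell in 10 of 24 cases and rose in 3 (median -0.24). The homeobox genes Dlx3 and Dlx2 fell from 34.2 and 31.2 to 11.1 and 8.97 CPM and from 66.2 and 60.7 to 29.4 and 31.3 CPM, Barx2 from 187 and 178 to 112 and 116 CPM and the SOX factor Sox6 from 71.1 and 70.7 to 31.1 and 28.3 CPM. Sox9, the factor of follicle stem cells, was slightly higher (log2 0.12 ± 0.03), as was Foxc1 (log2 0.46 ± 0.04). Of 26 Hox genes 5 fell, or 2 by DESeq2 and without DMSO replicate 2 or Dox and 4OHT replicate 1 and 3 without DMSO replicate 1, and 3 rose, with Hoxc13, the regulator of hair keratins, lower at log2 -1.62 ± 0.11 and Hoxa3 higher at 0.81 ± 0.15. Of the Hox genes 30.8% were called in either direction, against 42.1% of all genes. Retinoid pathway genes fell in 5 of 9 cases and rose in 0 by edgeR, at an unadjusted p of 0.05 and by DESeq2 (median -0.30). Cyp26b1, which breaks down retinoic acid, went from 103 and 90.2 to 33.6 and 27.8 CPM, and Dhrs3, which reduces retinal, from 19.4 and 18.5 to 8.26 and 8.79 CPM.

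Wnt ligands and receptors were found among the genes that moved, and 11 of 34 Wnt pathway genes were higher and 9 lower, or 6 higher and 9 lower by DESeq2. Wnt4 was at 533 and 512 CPM with DMSO against 139 and 147 CPM with RasV12, 3.66-fold lower (log2 -1.87 ± 0.04, adjusted p = 2.76e-22), and Wnt10a, a ligand of skin appendages, fell from 155 and 161 to 70.5 and 68.4 CPM. The receptor gene Fzd5 rose from 21.95 and 22.8 to 61.5 and 68.7 CPM. Tcf7, a nuclear partner of beta-catenin, was at 5.35 and 5.83 CPM with DMSO against 33.04 and 29.4 CPM with RasV12, 5.59-fold higher (log2 2.48 ± 0.11, adjusted p = 3.23e-16). Of 22 Notch pathway genes 7 fell and 4 rose. The ligand genes Jag1 and Dll1 were lower (log2 -0.65 ± 0.04 and -0.71 ± 0.05), the nuclear partner Rbpj was higher (log2 0.41 ± 0.06), and so was Hes6 (log2 0.95 ± 0.08). YAP and TEAD pathway genes rose in 9 of 24 cases and fell in 6, with Amotl2, an inhibitor that holds YAP at junctions, lower from 264 and 280.2 to 112 and 126 CPM.

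TGF-beta receptor 1, the gene targeted in the other arm of the series, was at 77.1 and 80.4 CPM with DMSO against 104 and 91.6 CPM with RasV12 in the NS cells (log2 0.32 ± 0.06, adjusted p = 0.000141). The TGF-beta family moved both ways, 12 of 41 ligands, receptors and Smads higher and 14 lower. Bmp2 fell from 79.7 and 75.6 to 25.9 and 25.5 CPM, the activin subunit Inhba from 131 and 136 to 92.6 and 85.9 CPM and its binding protein follistatin, Fst, from 557 and 575 to 338 and 367 CPM. Smad1, a transducer of BMP signals, and Ltbp3, which stores latent TGF-beta in matrix, were higher at log2 0.44 ± 0.05 and 0.44 ± 0.05. Of 21 TGF-beta target genes 6 rose and 7 fell: the repressor gene Bhlhe40 was higher (log2 1.02 ± 0.07), and the matrix genes Tgfbi and Thbs1 and the CDK inhibitor Cdkn1a were lower (log2 -0.88 ± 0.05, -0.52 ± 0.03 and -0.70 ± 0.07).

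Of 32 collagens, fibrillins and cross-linking enzymes 17 were lower and 9 higher (median -0.19), with the basement membrane collagen Col4a5 lower from 285 and 284 to 172 and 173 CPM and Thbs2, a thrombospondin, higher from 13.7 and 14.6 to 51.99 and 43.6 CPM. P4ha1, a prolyl hydroxylase, was higher (log2 0.61 ± 0.06). Plasminogen activator and metalloprotease genes fell in 13 of 25 cases and rose in 6 (median -0.35). The protease inhibitor genes Serpinb2, Timp3 and Timp2 fell from 15.7 and 17.2 to 4.902 and 4.43 CPM, from 2291 and 2255 to 1400.3 and 1423 CPM and from 1426 and 1429.9 to 1088 and 1111 CPM, together with the membrane metalloprotease Mmp14 (log2 -0.45 ± 0.04), while the proteases Adamts1 and Adam12 rose (log2 0.32 ± 0.03 and 0.81 ± 0.10). Fn1, fibronectin, had the second largest gain in CPM among called genes, with Rn45s and predicted or small RNA genes left out. It went from 1907 and 1836 to 2649 and 2406 CPM (log2 0.43 ± 0.11, adjusted p = 0.0346). Its call was lost without a low-count filter, with the replicate block (adjusted p = 0.0696) and without any 1 of the 4 NS libraries or of the knockdown DMSO libraries.

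Integrins outside the hemidesmosome rose in 4 of 13 cases and fell in 5. The collagen-binding subunits Itga2 and Itga1 fell (log2 -0.80 ± 0.05 and -1.82 ± 0.16) and Itga3, of the laminin receptor, rose (log2 0.29 ± 0.03). Semaphorins, plexins, ephrins and Eph receptors, cues for cell guidance and sorting, fell in 21 of 39 cases and rose in 8, or 5 by DESeq2 and without DMSO replicate 2 or Dox and 4OHT replicate 1. Sema3d was at 10.4 and 9.84 CPM with DMSO against 0.386 and 0.549 CPM with RasV12 (20.4-fold lower, log2 -4.35 ± 0.26), and Sema3c and Ephb3 were lower at log2 -0.76 ± 0.03 and -0.69 ± 0.04. Actin cytoskeleton genes were divided, 9 of 33 higher and 12 lower, with Actn4 and Tpm1 lower and the bundling protein gene Fscn1 higher (log2 -0.49 ± 0.03, -0.48 ± 0.04 and 0.44 ± 0.03). Of 14 tubulin genes 3 rose and 5 fell: Tubb3, the neuronal beta-tubulin, fell from 58.9 and 64.5 to 6.95 and 6.52 CPM (9.14-fold) and Tubb6 rose (log2 0.86 ± 0.06). Regulators of small GTPases numbered 24 higher and 19 lower, or 12 lower by DESeq2, of 75: Rgs16, a brake on G protein signals, rose from 1.65 and 2.24 to 13.01 and 16.3 CPM, the RhoA activator Arhgef3 from 4.602 and 4.796 to 20.997 and 19.2 CPM and Rhoc itself from 94.4 and 94.9 to 194 and 198 CPM, while Rnd3 and Rhob fell (log2 -0.58 ± 0.03 and -0.68 ± 0.06).

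Of 24 genes of the ATF4 pathway and serine synthesis 17 were higher and 1, Vldlr, was lower (median 0.33), and 12 of 20 cytosolic aminoacyl-tRNA synthetases were higher and 1, Hars, was lower (median 0.20), a call lost with DESeq2 and without DMSO replicate 1 or Dox and 4OHT replicate 1. Atf4, the factor itself, was at 206 and 206 CPM with DMSO against 333 and 365 CPM with RasV12 (log2 0.76 ± 0.04, adjusted p = 2.48e-14). Its target Trib3 rose from 12.9 and 13.4 to 32.5 and 36.8 CPM, Mthfd2, of mitochondrial folate metabolism, from 131 and 132 to 193 and 207 CPM, and Psat1, of serine synthesis, from 315 and 333 to 412 and 416 CPM. All 3 Tribbles genes were called, with Trib2 the highest riser, from 1.99 and 2.17 to 14.6 and 13.6 CPM (6.81-fold). Aars, Nars, Sars and Cars rose by 0.46, 0.39, 0.39 and 0.60 on the log2 scale.

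The cystine transporter moved against this group: Slc7a11 was at 176 and 177 CPM with DMSO against 71.6 and 69.8 CPM with RasV12, 2.498-fold lower (log2 -1.32 ± 0.05, adjusted p = 9.24e-18). Among 19 amino acid transporters 5 rose and 7 fell, with Slc7a5, of large neutral amino acids, higher from 289 and 309.8 to 501 and 506 CPM and the taurine transporter Slc6a6 lower from 2064 and 1942 to 1115 and 1051 CPM. Of 42 NRF2 and glutathione genes 21 fell and 6 rose (median -0.13). Gsta3, a glutathione transferase, was at 28.6 and 33.4 CPM with DMSO against 0.888 and 0.623 CPM with RasV12, 40.7-fold lower (log2 -5.35 ± 0.20), whereas Nfe2l2, which encodes NRF2, and Txnrd1, thioredoxin reductase, rose (log2 0.77 ± 0.05 and 0.85 ± 0.05). Cbs, of the pathway from homocysteine to cysteine, fell from 14.6 and 12.4 to 1.47 and 1.501 CPM, and Glul, glutamine synthetase, from 25.97 and 24.6 to 3.55 and 2.38 CPM.

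Glycolysis and hypoxia genes rose in 18 of 32 cases and fell in 4, or 2 by DESeq2 and without DMSO replicate 2 or Dox and 4OHT replicate 1 (median 0.25). The enzymes Pkm, Eno1 and Ldha rose from 954 and 957 to 1184 and 1228 CPM, from 96.2 and 95.3 to 139 and 146 CPM and from 468 and 455 to 577 and 619 CPM. The glucose transporter gene Slc2a1 and Hif1a were lower (log2 -0.80 ± 0.06 and -0.24 ± 0.04). Txnip, an arrestin-domain protein that limits glucose uptake, was at 231 and 222 CPM with DMSO against 48.8 and 48.1 CPM with RasV12 (log2 -2.22 ± 0.06, adjusted p = 1.86e-14), and 3 of its family of 6 fell and 0 rose by edgeR, at an unadjusted p of 0.05 and by DESeq2, with Arrdc4 and Arrdc3 at log2 -0.90 ± 0.10 and -0.63 ± 0.11. Tfrc, the transferrin receptor through which cells take up iron, was at 328 and 319 CPM with DMSO against 616 and 598 CPM with RasV12 (1.87-fold higher, log2 0.91 ± 0.03, adjusted p = 3.78e-18). Sterol and fatty acid synthesis genes rose in 15 of 36 cases and fell in 8, or 5 by DESeq2 and without DMSO replicate 1, DMSO replicate 2 or Dox and 4OHT replicate 2, with Msmo1 and Cyp51 higher (log2 0.37 ± 0.04 and 0.35 ± 0.03) and Acaca lower (log2 -0.52 ± 0.06).

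Genes of division rose broadly and by little. Of 53 mitosis genes 46 were higher and 0 lower by edgeR, with 0 lower at an unadjusted p of 0.05 and by DESeq2, which called 43 higher, and the median was 0.25. Cenpe, a kinetochore motor, rose from 136 and 135 to 207 and 206 CPM, Ect2, of cytokinesis, from 157 and 158 to 227 and 219 CPM, and Kif18b and Incenp by 0.45 and 0.38 on the log2 scale. Of 48 DNA replication genes 30 rose and 2, Ccne1 and E2f2, fell (median 0.21), with the licensing factor Cdt1 higher from 89.2 and 97.7 to 130.3 and 130.1 CPM and the maintenance methyltransferase Dnmt1 from 275 and 294 to 381 and 383 CPM. Cyclin genes Ccnd1, given above, and Ccnd2 (log2 0.45 ± 0.03) rose, and Cdkn1a fell from 51.7 and 49.3 to 30.3 and 31.9 CPM. Plk3, a p53 target, rose (log2 1.19 ± 0.12), and the p53 targets as a whole were 8 higher and 6 lower of 29, with 5 higher by DESeq2 and without DMSO replicate 1 or without either Dox and 4OHT library.

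Ribosome biogenesis genes rose in 30 of 50 cases and fell in 1, with a median of 0.18. Without DMSO replicate 1 the count higher was 18, and the gene that fell, Nop10, lost its call there, with DESeq2 and without DMSO replicate 2 or Dox and 4OHT replicate 1. The nucleolar genes Nop2, Npm1, Mybbp1a and Ddx21 were higher at log2 0.30 ± 0.04, 0.26 ± 0.04, 0.23 ± 0.03 and 0.25 ± 0.04. Rn45s had its highest share, 2.76%, in replicate 2 with RasV12, and without Rn45s in the fit the count higher was 30. In the Myc network 3 of 12 fell and 0 rose by edgeR, at an unadjusted p of 0.05 and by DESeq2, with Mxd4, a repressor of Myc targets, lower from 37.97 and 34.5 to 13.7 and 14.9 CPM. By edgeR 25% of this network was called, against 42.1% of all genes. Pdcd4, an inhibitor of the translation factor eIF4A, fell from 62.6 and 58.5 to 26.98 and 24.4 CPM (log2 -1.24 ± 0.09), and its group of initiation and elongation factors had 14 of 43 higher, or 9 without Dox and 4OHT replicate 2, and 4 lower, or 2 by DESeq2 and without Dox and 4OHT replicate 1. Hmga1, a chromatin protein gene with near-identical copies, rose from 22.2 and 23.4 to 38.6 and 40.6 CPM, and Igfbp2, which binds insulin-like growth factors, fell from 794 and 801 to 389 and 404 CPM.

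Of 25 chemokine, cytokine and adhesion molecule genes 7 were higher and 3 lower (median 0.14), so 40% were called, against 42.1% of all genes. Past 1.5-fold, 5 of the 25 were higher and 2 lower, against 1.54% and 2.72% of all genes. Csf1 and Il34, ligands of the macrophage growth factor receptor, rose from 11.4 and 12.04 to 28.6 and 25.2 CPM and from 3.48 and 2.98 to 7.797 and 8.06 CPM, and Lif, of the interleukin-6 family, from 14.1 and 12.4 to 23.3 and 23.9 CPM. Ptges, which makes prostaglandin E, rose (log2 1.31 ± 0.10). Il1rn, the interleukin-1 receptor antagonist, and Il18 fell from 7.18 and 5.83 to 1.89 and 2.64 CPM and from 6.44 and 6.96 to 3.13 and 2.71 CPM. Among NF-kB genes Bcl3, a nuclear co-factor, went from 0.124 and 0.142 to 1.58 and 1.28 CPM (log2 3.34 ± 0.52), and 6 of 18 rose, or 3 by DESeq2, and 2 fell. Immune cell markers summed to 7.397 to 9.38 CPM in the 4 libraries.

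Interferon-stimulated genes fell in 12 of 34 cases and rose in 1, Irf1, with a median of -0.55, and the count lower was 7 by DESeq2 and 4 without DMSO replicate 1. In both directions 38.2% of the 34 were called, against 42.1% of all genes, of which 21.3% were lower. Past 1.5-fold, 1 was lower and 0 higher. Eif2ak2, the kinase that senses double-stranded RNA, fell from 51.1 and 53.1 to 37.1 and 41.5 CPM, Xaf1 from 29.4 and 28.03 to 6.02 and 11.3 CPM and Irf9, of the interferon signal complex, from 30.3 and 30.3 to 15.8 and 23.8 CPM. The log2 change of Irf9 was -0.61, or -0.35 without Dox and 4OHT replicate 1 and -0.94 without Dox and 4OHT replicate 2. MHC class I presentation genes fell in 7 of 17 cases and rose in 1 (median -0.14): the peptide transporter Tap1 and H2-T23 were lower at log2 -0.79 ± 0.12 and -0.91 ± 0.18. H2-K1, of a family whose reads are alike in part, was higher at 0.55 ± 0.14, a call lost without DMSO replicate 1, DMSO replicate 2 or Dox and 4OHT replicate 2.

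Several further genes were named by the size of their change alone. Spp1, osteopontin, a secreted ligand of integrins and CD44, was at 3.76 and 2.42 CPM with DMSO against 16.98 and 19.4 CPM with RasV12 (5.82-fold higher), and Cd44, its receptor, rose from 394 and 401 to 635 and 616 CPM. Eya2, a transcriptional co-activator, Nlrp10, St6gal1, which adds sialic acid to glycoproteins, and Arid5a rose by 2.74, 2.32, 2.10 and 1.88 on the log2 scale. Cpa4, a carboxypeptidase, Sel1l3, Samd5 and Megf6 were lower at -2.60 ± 0.23, -2.31 ± 0.19, -2.18 ± 0.13 and -2.17 ± 0.17. The gains in mean CPM over all genes summed to 74396 CPM and the losses to -92339 CPM. The 8 largest losses, which were Krt5, Krt14, Krt17, Col17a1, Dst, Thbs1, Krt6a and Slc6a6, came to -20492 CPM, and the 8 largest gains to 17282 CPM. Both sums of gains hold Rn45s, which took 0.816% and 0.549% of counts with DMSO and 0.916% and 2.76% with RasV12. A large part of the 8 largest gains therefore lies in that entry, mainly in replicate 2, and a much smaller part of the gains over all genes. With Rn45s and predicted or small RNA genes left out, Esr1, Fn1, Tfrc and Ccnd2 gained most among the called genes.

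The same treatment was given to the Tgfbr1 knockdown cells, and the difference between both responses was tested as an interaction over the 8 libraries. It passed for 4791 genes (38.2%). Of the 534 genes past 1.5-fold in NS cells, 413 differed in this test, 399 had the same sign in the knockdown cells, and the median size of their change was 1.29 in NS and 0.44 in knockdown cells on the log2 scale. These genes were chosen by the size of their NS change, so a larger change in NS cells follows in part from the choice. Genes chosen by the knockdown response were not looked at in this way. In the knockdown cells themselves 19.5% of all genes were called higher and 16.6% lower. Of 14 keratins 6 were called lower there, at a median of -0.24 against -1.28 in NS cells, and 8 differed by the interaction. Krt16 was at log2 -0.05 ± 0.08 and Krt6a at 0.04 ± 0.03 in knockdown cells (adjusted p = 0.672 and 0.429). These changes start from lower levels, because the knockdown cells held less of both under DMSO. Krt16 was there at 77.8 and 65.8 CPM, against 364 and 335 CPM in NS cells with DMSO and 50.7 and 54.9 CPM with RasV12. Krt6a was at 1156 and 1087 CPM in knockdown cells with DMSO, against 1862 and 1772 CPM in NS cells. Of 22 Sprouty, Spred and MAPK phosphatase genes 15 were called higher in knockdown cells, and 12 of the 22 differed by the interaction, among them Dusp10, which was lower in NS cells (log2 -0.42 ± 0.11) and higher in knockdown cells (log2 0.90 ± 0.10).

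Of the mitosis, DNA replication and ribosome biogenesis genes, most were called higher in NS cells and most were called lower in knockdown cells. How many genes were called in both ways was not counted. Of 53 mitosis genes 30 fell in knockdown cells, with a median of -0.16, and 47 differed by the interaction. DNA replication genes fell in 34 of 48 cases (median -0.20, 40 differing), or 22 without knockdown DMSO replicate 2, and ribosome biogenesis genes in 38 of 50 (median -0.27, 44 differing). The EGF receptor family had 4 higher and 1 lower in knockdown cells at a median of 0.05, with 7 of 10 differing, and its count higher was 2 without knockdown DMSO replicate 1 or knockdown Dox and 4OHT replicate 1. Plasminogen activator and metalloprotease genes, of which 13 fell in NS cells, rose in 11 of 25 cases and fell in 1 in knockdown cells, and interferon-stimulated genes rose in 10 of 34, with 4 higher without knockdown DMSO replicate 2 and 6 without knockdown Dox and 4OHT replicate 1.

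Etv4 rose less in the knockdown cells, which held more of it under DMSO. There it moved from 91.5 and 98.8 to 156 and 152 CPM, against 10.7 and 11.8 to 114 and 125 CPM in NS cells (interaction log2 -2.72 ± 0.09, adjusted p = 9.20e-18). Slc7a11, which fell in NS cells, moved in the knockdown cells from 59.7 and 55.5 to 73.1 and 81.7 CPM (interaction log2 1.74 ± 0.08, adjusted p = 1.43e-15). Ecm1, an extracellular matrix protein gene, fell from 159.5 and 159 to 46.2 and 47.97 CPM in NS cells and lay in the knockdown cells at 77.9 and 73.9 CPM with DMSO and 75.2 and 69.4 CPM with RasV12 (interaction log2 1.69 ± 0.07). Tfrc, at log2 0.91 ± 0.03 in NS cells, was at 0.00 ± 0.03 in knockdown cells (interaction adjusted p = 2.21e-14). The knockdown cells held 713 and 727 CPM of Tfrc with DMSO and 710.1 and 727 CPM with RasV12, more than the NS cells with either treatment. Epgn, of the EGF receptor ligands, also stood higher in knockdown cells under DMSO, at 51.1 and 58.2 CPM against 11.4 and 12.6 CPM in NS cells.

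**Figure D5:**
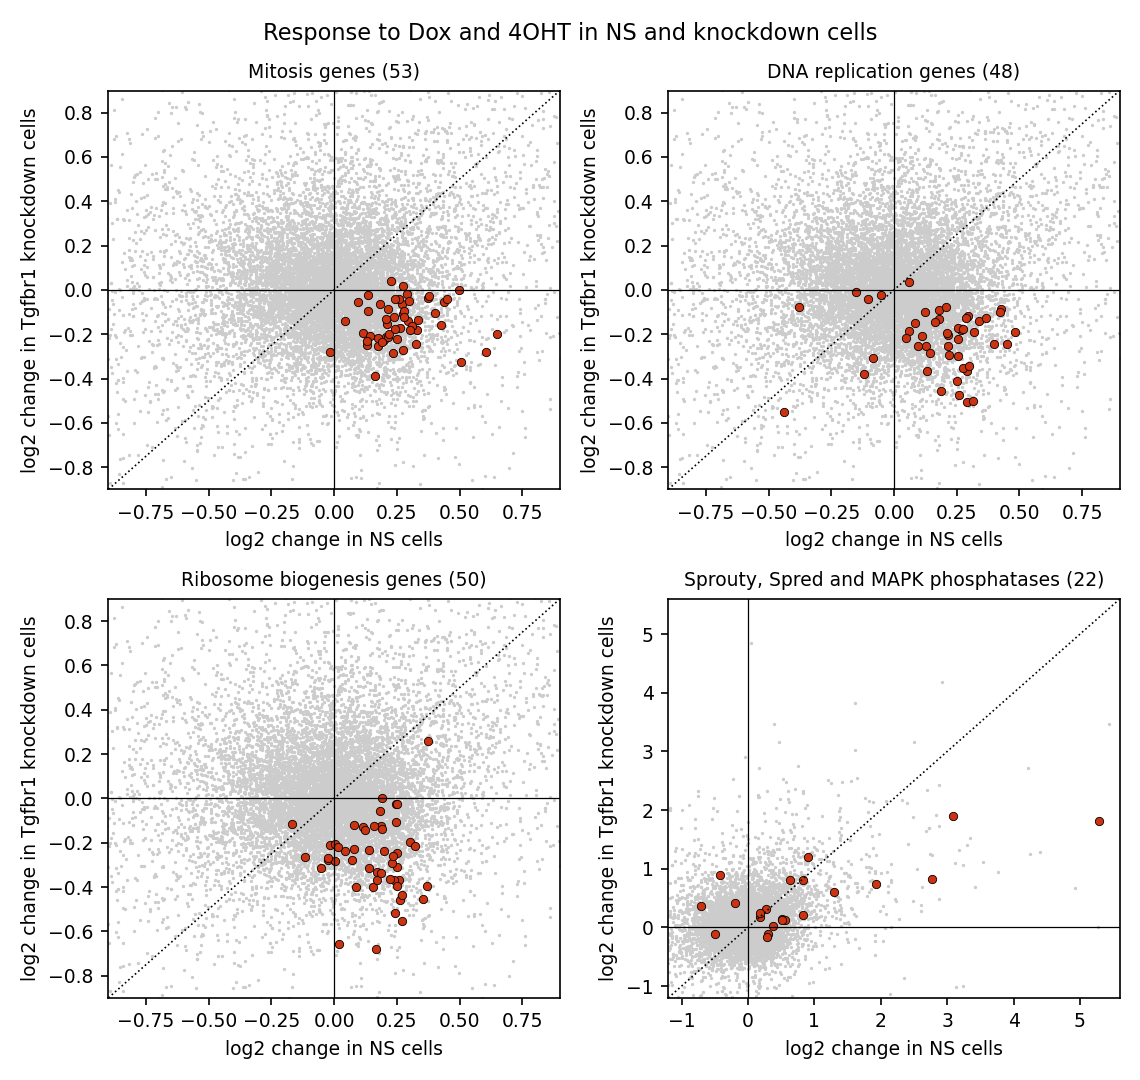
Change with RasV12 in Tgfbr1 knockdown cells (vertical axis, log2) against the change in NS cells (horizontal axis, log2) for mitosis, DNA replication and ribosome biogenesis genes and for Sprouty, Spred and MAPK phosphatases, 1 red point a member on grey points for all tested genes within the panel. The dotted line marks equal changes, and the mitosis, replication and ribosome biogenesis genes gather at positive NS values and negative knockdown values.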

How the data were processed

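The authors deposited estimated counts for each gene in a single table without normalization, made by TopHat alignment and HOMER counting on mm9 by isoform, per the submitters' processing notes, which also name DESeq2. The sources used here do not give versions, the strand setting or filters, so reads of overlapping, antisense or near-identical genes cannot be told apart. Of 24909 entries, 2 repeated symbols were dropped. The design had assumed whole counts, and the values, multiples of 0.5, were rounded for the tests.

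Genes kept by edgeR 4.0.16's filterByExpr (12538, with 99.96% of counts) were scaled by TMM and tested in R 4.3.3 with the robust quasi-likelihood test over all 8 libraries, which left 4 residual degrees of freedom, with Benjamini-Hochberg adjustment over all genes. glmTreat tested 1.5-fold, and an interaction tested the knockdown response minus the NS response. The code was tested on simulated counts. Folds against few counts use a floor of 3 counts over the group or an exact 95% interval, which cover counting error only. Values after ± are standard errors of the fitted log2 change, taken as its size over the square root of its F statistic. Their spread comes from the fit shared by all 8 libraries and is drawn towards that of other genes. It is not the spread of the 2 libraries of a group alone.

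The comparison and the gene lists were chosen with earlier results of these data known. Named genes, some of which are not reported here, are Esr1, the Ras genes and Tgfbr1, the 15 largest rises and falls among genes of at least 10 CPM without overlap, the 8 largest in CPM, per list up to 4 with the smallest p and 2 in the other direction, 6 with the larger and 6 with the smaller or opposite NS response by the interaction, and genes near 0 in 1 group. Alternatives were DESeq2's size factors, DESeq2 1.42.0, no filter, only the NS libraries, a replicate block, a 2-fold test, and leaving out each library, Rn45s or Esr1.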

Additional observations from a re-analysis of the deposited data

Results flagged for a closer look

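The response to RasV12 differed between the NS and the Tgfbr1 knockdown cells for 4791 genes by the interaction term of edgeR's quasi-likelihood test over the 8 libraries, and 5731 genes had an unadjusted p under 0.05. Each value below is the log2 response in knockdown cells minus that in NS cells. Etv4, the PEA3 factor, differed by -2.72, with a rise in both backgrounds. Genes that fell in NS cells and rose in knockdown cells were Slc7a11 (1.74) and the AP-1 subunit gene Fosl2 (1.04). The fall in NS cells was not called in knockdown cells for the secreted matrix protein gene Ecm1 (1.69) and Oxr1, of oxidation resistance (1.29), and was smaller there for Flrt2, a guidance cue (1.08). Ndrg1 rose in both backgrounds and more in the knockdown cells (1.56). A last set fell in NS cells and rose in knockdown cells: Ndrg4 (2.31), the lysyl oxidase relative Loxl4 (1.14), the fructose bisphosphatase gene Fbp2 (1.07), the cathepsin inhibitor gene Cst3 (1.03) and the progranulin gene Grn (1.02). The fall of Loxl4 lost its call with DESeq2 and without DMSO replicate 2 or Dox and 4OHT replicate 2. Ndrg4, for example, moved from 116 and 111 to 63.8 and 64.96 CPM in NS cells and lay at 19.02 and 20.5 CPM with DMSO and 57.9 and 53.03 CPM with RasV12 in knockdown cells. No group holds enough libraries for a test of single outlying libraries.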

How the results depend on the processing

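With 2 libraries a group, DESeq2 called 3265 genes in the NS comparison, against 5281 by edgeR, and shared 3246 of them in the same direction, and it called 2828 for the difference between the backgrounds. A 2-fold test left 169 genes where the 1.5-fold test passed 534. DESeq2's size factors gave 5284, no filter 5374, only the 4 NS libraries 5181, leaving out Rn45s 5279 and leaving out Esr1 5278 genes, and no gene called here was called in the opposite direction under any of these. Leaving out 1 library gave 3888 to 5329 called genes, 402 to 544 past 1.5-fold and 3918 to 4533 for the interaction, where a group left with 1 library is assumed to vary like the others. The replicate block gave 5319 called genes, 542 past 1.5-fold and 4814 for the interaction. Differences between replicates 1 and 2 correlated between groups at -0.023 to 0.033 over all tested genes, those of few counts included. Whether libraries of the same number share a culture or day is not given by the labels, and a small shared effect could be missed by these correlations. No call of a gene named in the text changed direction. The interaction cannot be had from the NS libraries alone, and DESeq2 was not run against a fold. Of the causes of these shifts none was tested beyond the smaller number of libraries where 1 is left out. Genes at few counts, Areg, Vim, Gli1 and Bcl3 among them, are limited by depth.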
